A study of Homo sapiens with 6 samples.

Results

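Long intergenic noncoding RNAs with LINC symbols were examined in 6 RNA-seq libraries of the human cell line 5637, grown from a bladder carcinoma. The RNAs were chosen by name and by measured level: a gene was included when its symbol was LINC followed by a digit and its mean over the 6 libraries was at least 1 FPKM, FPKM being reads scaled to gene length and to the reads of the library. Of 809 LINC-named rows in the deposited table of 23024 genes, 75 met the rule and 734 lay below it, with 36 of the latter between 0.5 and 1 FPKM. The choice was by the level over all libraries and not by the difference between groups. Just inside the threshold were LINC00997 (mean 1.051 FPKM), LINC00342 (1.052 FPKM) and LINC00839 (1.071 FPKM), and just outside were LINC01224 (0.9833 FPKM) and LINC01836 (0.9745 FPKM).

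The labels give 3 libraries named NC, with the genotype given as WT, and 3 libraries named sh-RAD51C, with the genotype given as RAD51C knockdown by short hairpin RNA. All 6 came from transfected cells of the same line. The series asked how lowering RAD51C, a gene of homologous recombination repair, changes expression in these cells. What NC stands for, the hairpin's sequence, the time after transfection and the source of each replicate (separate cultures or not) are not stated. A p-value here therefore weighs a difference against library-to-library spread alone, and that spread may be purely technical.

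LINC symbols are given to noncoding transcripts longer than short regulatory RNAs that lie between coding genes and have no accepted functional name. Most are made by RNA polymerase II, spliced and polyadenylated like messenger RNAs, but at lower levels, and many stay in the nucleus. Some act on genes close to where they are made, others act elsewhere in the cell, and for many no function is established. The nuclear exosome and its adaptors degrade many such transcripts soon after they are made.

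RAD51C itself was at 14.7, 13.2 and 13.6 FPKM in NC and at 3.51, 3.09 and 2.95 FPKM in sh-RAD51C, 23% of the NC mean (log2 fold change -1.83 ± 0.064 (SE), limma adjusted p = 7.16e-09). Inferred depth lay between 36068282 and 38079825 reads per library. All 8 epithelial markers examined were well above 1 FPKM (means from 34.1 to 878 FPKM), and their sum was 2924 to 3012 FPKM in NC and 2695 to 2808 FPKM in sh-RAD51C, with 5 higher and 3 lower. None of 4 endothelial and 4 fibroblast markers reached a mean of 1 FPKM; the endothelial sum was 0.16 to 0.221 FPKM in NC and 0.331 to 0.446 FPKM in sh-RAD51C, and the fibroblast sum 0.201 to 0.278 and 0.128 to 0.215 FPKM. Of 3 leukocyte markers listed, PTPRC and LYZ stayed at or under 0.0357 FPKM, while CD14 was lower in sh-RAD51C, with the list's sum at 1.47 to 1.78 FPKM in NC and 0.377 to 0.98 FPKM in sh-RAD51C. The part of these lists in the results was not tested.

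The LINC-named RNAs were more often lower than higher in the knockdown libraries. By limma on log2(FPKM + 1) at a Benjamini-Hochberg adjusted p under 0.05 over all 11152 genes tested, 28 of 75 were lower, 10 were higher and 37 were not called. The same test called 26.2% of all genes lower and 23.2% higher, against 37.3% and 13.3% of the LINC-named RNAs. In both directions together the share was 50.7%, near the 49.4% of all genes. The median log2 fold change was -0.13 over the 75, beside -0.01 over all genes. The split depended on the scaling between libraries: with quantile normalization 22 were lower and 15 higher, with a median of -0.03, while median-ratio rescaling gave 28 and 10. Without the filter on low values, only 17 were lower and 5 higher.

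In sum, the 75 RNAs held 444.6, 435.1 and 442.2 FPKM in NC 1, 2 and 3 and 378.2, 358.7 and 383.1 FPKM in sh-RAD51C 1, 2 and 3. Every sh-RAD51C sum lay below every NC sum. Their share of all FPKM was 0.108% to 0.111% in NC and 0.0911% to 0.0983% in sh-RAD51C. LINC02582 and LINC00673 together made up between 31.6% and 34.1% of that sum in each library. LINC00673 fell from a mean of 80.4 to 49.3 FPKM, whereas LINC02582 was at 66.7 and 72.6 FPKM. A large part of the fall in the sum was thus that of LINC00673 alone. The groups did not overlap for 38 of the 75 RNAs, 27 of them lower and 11 higher; over all genes tested this held for 58.4%. In these bulk libraries, less RNA per cell and fewer cells that make an RNA cannot be told apart.

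Coding genes of like level showed part of the same tilt. RefSeq lists 9777 protein-coding genes among those tested with means from 1 FPKM up to the 69.6 FPKM of the highest LINC-named RNA, of which 26.2% were lower and 22.8% higher. Weighted to the ranges of mean FPKM that the LINC-named RNAs fill, the coding shares were 28.1% lower and 15.8% higher, beside 37.3% and 13.3%. At a mean of 1 to 2 FPKM, 34.5% of 29 LINC-named RNAs and 30% of 1114 coding genes were lower, and 13.8% and 11% were higher. At 2 to 5 FPKM the shares were 23.3% of 30 and 27.8% of 2210 lower, and 16.7% and 15.7% higher. The difference was largest at 5 to 10 FPKM, where 8 of 10 LINC-named RNAs (80%) and 25.6% of 2210 coding genes were lower. None of those 10 was called higher, by limma on FPKM or by voom on inferred reads, and 1 was higher at an unadjusted p under 0.05. Of the coding genes in that range, 21.4% were called higher. At 10 FPKM or more, 3 of 6 were lower and 1 higher, beside 24.7% and 30.4% of 4243 coding genes. These shares describe the lists, and no test of the list was made.

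**Figure D1:**
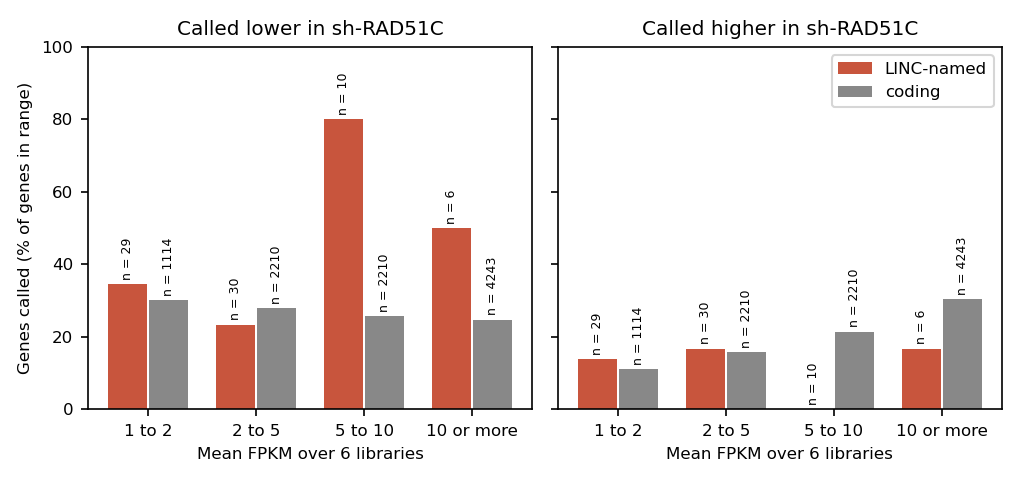
Share of LINC-named RNAs (red) and of coding genes of like mean FPKM (grey) called lower (left) or higher (right) in sh-RAD51C, in percent, by range of mean FPKM over 6 libraries, with the number of genes above each bar. In the range from 5 to 10 FPKM, 80% of 10 LINC-named RNAs and 25.6% of coding genes were lower, while at 1 to 2 FPKM the shares were 34.5% and 30%.

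LINC-named RNAs were measured less precisely than the coding genes between 1 and 69.6 FPKM, more of which had high means. The part of level in this difference was not tested. Their gene lengths, inferred from the FPKM steps, had a median of 2052 bases against 4317 bases for the coding genes, and the median number of reads per library was 176 against 1354. The median coefficient of variation between libraries of a group was 11.8% in NC and 12.2% in sh-RAD51C, beside 4.05% and 5.36% for the coding genes. Of the coding genes, 4243 averaged 10 FPKM or more, beside 6 of the LINC-named RNAs. Within 1 to 2 FPKM the gap was smaller, with median reads of 94.8 against 277. The coefficients there were 13.5% and 18.7%, beside 8.15% and 9.38%. At 5 to 10 FPKM they were 6.49% and 5.43%, beside 4.27% and 5.65%. The median size of the log2 fold change was 0.25 beside 0.15. Of the 38 called RNAs, 9 had fewer than 30 reads in at least 1 library. Of the 64 RNAs found in GENCODE release 29, 26 have an exon that overlaps another gene and 38 do not; 10 and 21 of these were called. For the other 11, 7 of them called and LINC00673 and LINC02889 among them, exon overlap was not checked. Because the mean had to reach 1 FPKM, 9 RNAs entered with an sh-RAD51C mean below 1 FPKM and 4 with an NC mean below 1 FPKM. LINC02889, LINC01730 and LINC02518 are among the former, and LINC02595 and LINC02454 among the latter. Such RNAs met the rule through the group in which they were higher, so the size and rank of their changes are not independent of the rule.

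The 6 most abundant LINC-named RNAs, all with means of at least 10 FPKM, differed in direction. LINC02582, the highest, was at 68.9, 61.1 and 70.1 FPKM in NC and 73.5, 66.4 and 77.7 FPKM in sh-RAD51C, and its log2 fold change of 0.12 was not called (limma adjusted p = 0.137). LINC00673 on chromosome 17 from 72403322 to 72592804, an RNA studied in several carcinomas, was at 80.3, 80 and 80.8 FPKM in NC and 50.3, 46.9 and 50.6 FPKM in sh-RAD51C. Its NC libraries lay within 1 FPKM of each other, and its fall to 61.3% of the NC mean had the smallest p of the 75 RNAs (log2 fold change -0.70 ± 0.038 (SE), limma adjusted p = 1.24e-07). At 4571 to 7961 reads per library it was also among the most deeply measured.

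LINC01503, reported as driven by a super-enhancer in squamous carcinomas, fell from 27.1 ± 2.43 to 14.6 ± 1.42 FPKM (SD, n = 3 each). LINC02677 fell from 30.1 ± 0.551 to 23.4 ± 1.39 FPKM, with no overlap between groups. LINC02474 was at 32.4, 24.2 and 27 FPKM in NC and 37.5, 30.8 and 37.1 FPKM in sh-RAD51C, so the groups overlapped. It was called higher (log2 fold change 0.33, limma adjusted p = 0.0151), but not without NC replicate 2 (adjusted p = 0.0614), without sh-RAD51C replicate 1 (0.0668) or without sh-RAD51C replicate 3 (0.0649). LINC01411, at 11.4, 11.6 and 11.2 FPKM in NC and 11, 10.4 and 13.9 FPKM in sh-RAD51C, was not called (log2 fold change 0.03, limma adjusted p = 0.766).

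Among the 28 lower RNAs the log2 fold changes ran from -0.15 to -1.31 with a median of -0.42, and 15 had a fold of means of at least 1.5. LINC02889, on chromosome 7 from 17463445 to 17558909, fell most. Its sh-RAD51C mean of 0.736 FPKM lay below 1 FPKM, so it met the rule through the NC libraries. It was at 4.14, 2.29 and 3.49 FPKM in NC (66, 38 and 58 reads) and at 1.19, 0.366 and 0.655 FPKM in sh-RAD51C (20, 6 and 11 reads). Every knockdown library was below every NC library, at 22.3% of the NC mean (log2 fold change -1.31 ± 0.18 (SE), limma adjusted p = 0.000109).

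LINC01730, on chromosome 20 from 3808494 to 3812434, was at 1.1, 2.07 and 2.19 FPKM in NC and 0.632, 0.191 and 0.485 FPKM in sh-RAD51C, 24.4% of the NC mean. These values rest on 28, 55 and 58 reads and on 17, 5 and 13 reads, and an exon of it overlaps another annotated gene, so some reads may belong to that gene. LINC00963 fell from 7.43, 9.06 and 8.41 FPKM to 3.3, 4.03 and 4.12 FPKM, a clear gap at 266 to 721 reads per library (log2 fold change -0.95 ± 0.083 (SE), limma adjusted p = 4.11e-06). LINC02541 was at 8.88, 12.3 and 9.17 FPKM in NC and 4.8, 3.86 and 5.13 FPKM in sh-RAD51C. LINC02518 was at 3.13, 2.71 and 1.11 FPKM in NC and 1.1, 0.49 and 0.574 FPKM in sh-RAD51C. For the last of these, NC 3 and sh-RAD51C 1 each held 23 reads, so the groups were apart only by the scaling to depth, and with every listed gene tested it was no longer called (limma adjusted p = 0.0699).

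Further called falls were smaller. LINC00649 fell 1.73-fold from 3.49 ± 0.355 to 2.02 ± 0.392 FPKM, LINC02257 1.67-fold, LINC00944 1.62-fold and LINC01138 1.53-fold; exons of LINC00649 and LINC01138 overlap other genes, for LINC00649 its neighbour ATP5PO among them. LINC00525 was called lower although its groups overlapped, at 1.84 to 3 FPKM in NC and 1.08 to 1.91 FPKM in sh-RAD51C. That call was lost without NC replicate 3 (limma adjusted p = 0.0739), without sh-RAD51C replicate 1 (0.0862) and without sh-RAD51C replicate 3 (0.0653). LINC01089, known from work in breast cells as an RNA that EGF represses, fell 1.4-fold from 7.28 ± 0.504 to 5.2 ± 0.449 FPKM (SD, n = 3 each), with exon overlap with RHOF. The long transcript LINC00674, with 2475 to 3237 reads per library, fell by 0.29 on the log2(FPKM + 1) scale (SE 0.05, limma adjusted p = 0.000604). For LINC01000, at 10263 bases another of the longest genes, the fall of 0.30 was 0.18 without sh-RAD51C replicate 1, and the call held (limma adjusted p = 0.0139). Without the filter on low values LINC01000 was not called (limma adjusted p = 0.0999). LINC00339, whose exons overlap other noncoding genes, fell from 4.51 ± 0.151 to 3.37 ± 0.094 FPKM, while CDC42, its nearest tested coding gene at 21485 bases, was not called (log2 fold change -0.05).

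On the log2(FPKM + 1) scale the 10 higher RNAs moved less, by 0.25 to 0.69 with a median of 0.35. By fold of means, 3 of them reached at least 1.5. That scale understates changes at low levels, and all of them but LINC02474 had means of at most 2.69 FPKM. LINC02595, on the X chromosome from 45848074 to 45851490, was at 0.961, 0.923 and 0.426 FPKM in NC and 1.89, 2.01 and 1.61 FPKM in sh-RAD51C. It rose 2.39-fold by means, on 6 to 13 reads in NC and 23 to 28 reads in sh-RAD51C (log2 fold change 0.69 ± 0.12 (SE), limma adjusted p = 0.000507). LINC01186 was at 2.16, 1.3 and 1.22 FPKM in NC and 2.69, 2.92 and 3.21 FPKM in sh-RAD51C, with NC 1 well above the other NC libraries and still below all knockdown libraries. LINC02454 rose 1.9-fold to 1.56 ± 0.424 FPKM on 14 to 42 reads. The NC means of LINC02595 and LINC02454, 0.77 and 0.824 FPKM, lay below 1 FPKM, so both met the rule through the sh-RAD51C libraries.

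LINC02577 rose from 1.95 ± 0.211 to 2.78 ± 0.151 FPKM and LINC01605 from 1.88 ± 0.0901 to 2.57 ± 0.162 FPKM (SD, n = 3 each), both on more than 100 reads in every library. LINC01357, only 271 bases long by the inferred length, rose 1.46-fold on 20 to 39 reads, and voom on inferred reads did not call it (adjusted p = 0.131). LINC00662, LINC01547 and LINC00680 rose 1.47-fold, 1.41-fold and 1.29-fold. Exons of LINC02577, LINC00662 and LINC00680 overlap other annotated genes, so some of their reads may belong to those genes. LINC00662 lost its call without NC replicate 1 (limma adjusted p = 0.0542) and without sh-RAD51C replicate 2 (0.0552). LINC01547 lost its call without the same libraries (limma adjusted p = 0.0544 and 0.0518), and LINC00680 without NC replicate 3 (0.0602).

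**Figure D2:**
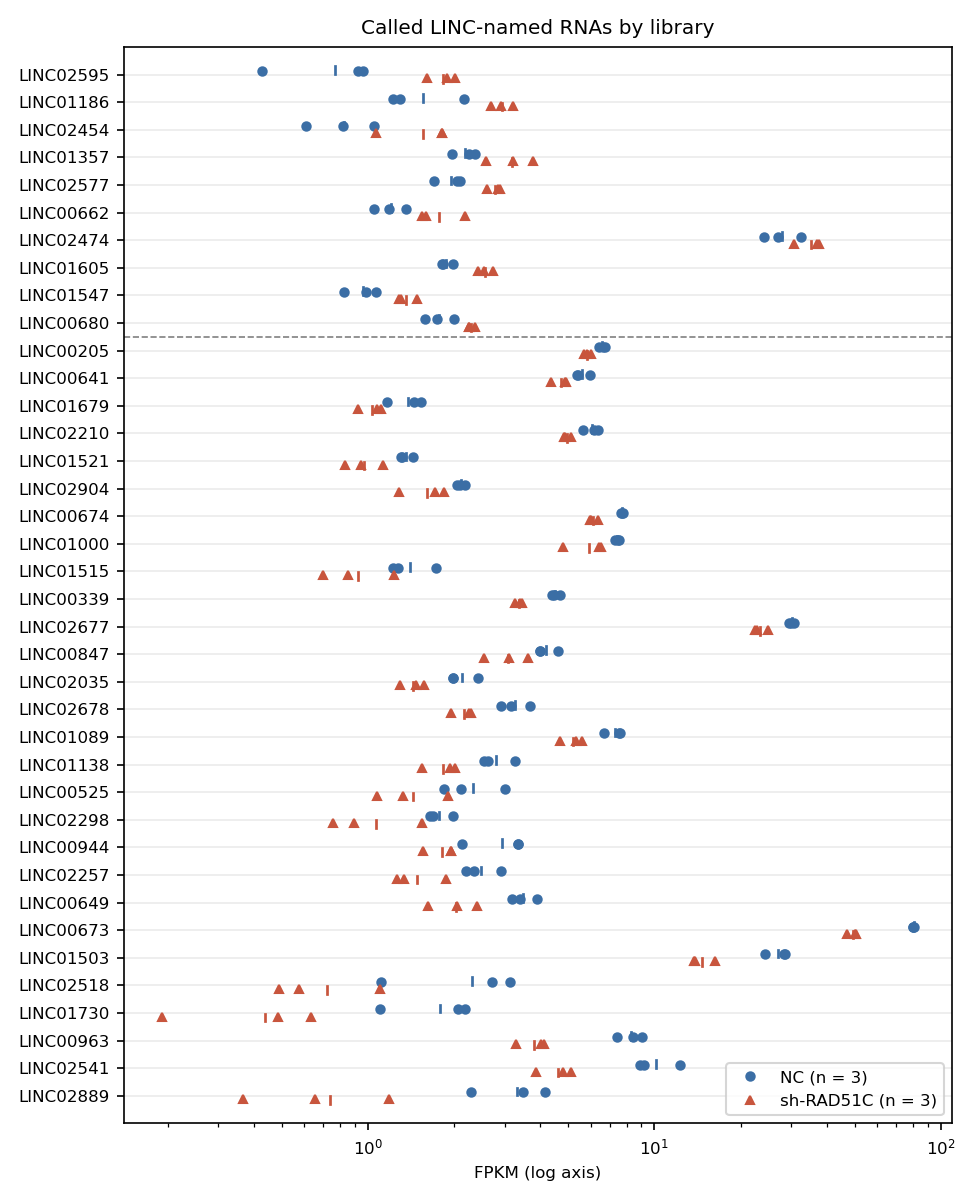
FPKM on a log axis of the 38 called LINC-named RNAs in each library, ordered by log2 fold change, with 3 NC libraries (blue circles) and 3 sh-RAD51C libraries (red triangles) per row, short vertical lines at the group means, and a dashed line between the 10 higher and the 28 lower RNAs. LINC00673 falls from about 80.4 to 49.3 FPKM with little spread, whereas LINC02889 and LINC01730 fall further at levels near or below 4 FPKM.

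The 37 RNAs that were not called had log2 fold changes between -0.27 and 0.27. They include LINC00467 (0.20, limma adjusted p = 0.0765), LINC00941 (0.23, 0.0772) and LINC00460 (0.13, 0.317), and LINC00857 (0.01, 0.896) and LINC01128 (0.00, 0.984) lay nearest to no difference. LINC00537, at 2.72, 2.45 and 2.81 FPKM in NC and 2.2, 2.41 and 2.19 FPKM in sh-RAD51C, had separate groups and missed the threshold (limma adjusted p = 0.0572). LINC01764, at 1.61 to 3.64 FPKM in NC and 1.7 to 2.83 FPKM in sh-RAD51C, has an exon that overlaps UCA1, an RNA first described in bladder cancer that was at 138 ± 1.77 and 159 ± 9.28 FPKM, and its own reads cannot be told from those of UCA1 with strand unstated.

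Several called RNAs lie close together in the genome. RefSeq positions were found for 74 of the 75, and 10 pairs lay within 1 megabase of each other. In 6 pairs both RNAs were called, 3 pairs both lower, 1 both higher and 2 in opposite directions. With 28 of the 38 called RNAs lower, many pairs of called RNAs share a direction wherever they lie. Whether near pairs do so more often was not tested. LINC01503 and LINC00963 lie 141183 bases apart on chromosome 9 with no coding gene fully between them and fell to 54.1% and 46% of their NC means. LINC02541 and LINC02518 lie 190088 bases apart on chromosome 6 and fell to 45.5% and 31.1%. LINC02677 and LINC02678 lie 5953 bases apart on chromosome 10 and fell to 77.7% and 66.5%. On the X chromosome LINC02595 and LINC01186, 474434 bases apart, rose to 239% and 189%.

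The spans of LINC02257 and LINC02474 overlap on chromosome 1, on opposite strands in GENCODE, and moved in opposite directions. LINC02257 was at 2.34, 2.91 and 2.2 FPKM in NC and 1.87, 1.34 and 1.26 FPKM in sh-RAD51C, to 60% of the NC mean, and LINC02474 rose to 126%. Their annotated exons do not overlap in GENCODE release 29. The other opposite pair, LINC00205 (-0.15) and LINC01547 (0.27), lies 348139 bases apart on chromosome 21, and the call of LINC00205 was lost without any 1 of 4 libraries (limma adjusted p from 0.0613 to 0.122 without NC replicates 1 and 2 and sh-RAD51C replicates 1 and 2).

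**Figure D3:**
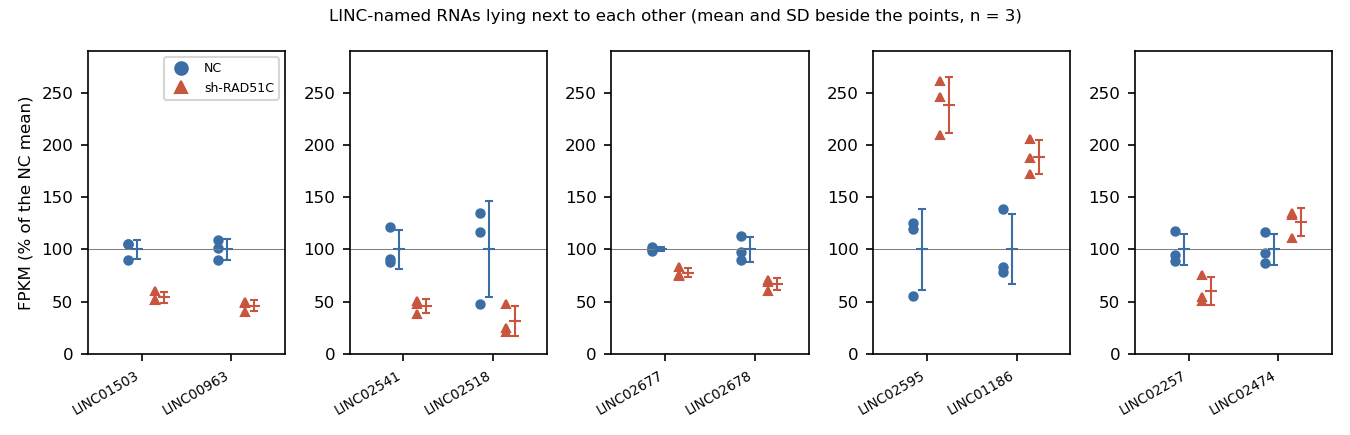
FPKM in percent of the NC mean for 5 of the 6 pairs within 1 megabase in which both LINC-named RNAs were called. Each has 3 NC (blue circles) and 3 sh-RAD51C (red triangles) libraries, with the mean and SD beside the points. The pair LINC00205 and LINC01547, called in opposite directions, is not shown. The first 3 pairs fell together, LINC02595 and LINC01186 rose to 239% and 189%, and LINC02257 and LINC02474 went to 60% and 126%.

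Of the called RNAs with a RefSeq promoter entry, the promoters of the 5 that fell most and the 3 that rose most are shown, the same RNAs whether ranked by log2 fold change of (FPKM + 1) or by fold of means, so that their base composition and motif content can be compared. Each runs 5′ to 3′ on the gene's strand over 300 bases, 250 before and 50 after the annotated start, in build GRCh38.p14. Capitals mark matches, on either strand, to the AP-1 motif TGANTCA, the TEAD core GGAATG or the E-box CACGTG. The first 5 belong to the RNAs that fell and the last 3 to those that rose, each in order of log2 fold change. They lie at chr7:17558860-17559159 (minus strand), chr6:113650026-113650325 (minus), chr9:129488410-129488709 (plus), chr20:3808244-3808543 (plus), chr6:113433398-113433697 (minus), chrX:45851441-45851740 (minus), chrX:46327625-46327924 (minus) and chr12:65602619-65602918 (plus).
LINC02889: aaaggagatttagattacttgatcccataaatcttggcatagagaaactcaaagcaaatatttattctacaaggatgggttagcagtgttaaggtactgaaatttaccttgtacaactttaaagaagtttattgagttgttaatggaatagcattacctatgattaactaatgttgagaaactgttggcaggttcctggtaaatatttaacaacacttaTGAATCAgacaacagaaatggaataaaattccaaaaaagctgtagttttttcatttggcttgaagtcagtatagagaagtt
LINC02541: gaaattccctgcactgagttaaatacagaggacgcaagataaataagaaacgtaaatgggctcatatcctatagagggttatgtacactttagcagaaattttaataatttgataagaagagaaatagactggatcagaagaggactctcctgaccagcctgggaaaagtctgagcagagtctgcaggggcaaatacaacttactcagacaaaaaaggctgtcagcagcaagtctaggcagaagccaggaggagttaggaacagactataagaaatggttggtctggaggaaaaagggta
LINC00963: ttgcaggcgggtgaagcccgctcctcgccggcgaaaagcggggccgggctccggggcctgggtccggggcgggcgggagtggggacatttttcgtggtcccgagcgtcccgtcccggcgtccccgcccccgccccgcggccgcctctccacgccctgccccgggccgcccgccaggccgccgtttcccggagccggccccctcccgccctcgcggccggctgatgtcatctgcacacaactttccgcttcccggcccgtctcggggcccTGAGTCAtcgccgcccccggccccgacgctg
LINC01730: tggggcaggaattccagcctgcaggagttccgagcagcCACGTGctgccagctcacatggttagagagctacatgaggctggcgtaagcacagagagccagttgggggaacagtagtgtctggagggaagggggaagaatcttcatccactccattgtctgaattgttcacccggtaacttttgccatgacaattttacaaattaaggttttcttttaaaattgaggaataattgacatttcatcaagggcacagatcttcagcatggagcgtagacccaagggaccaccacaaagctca
LINC02518: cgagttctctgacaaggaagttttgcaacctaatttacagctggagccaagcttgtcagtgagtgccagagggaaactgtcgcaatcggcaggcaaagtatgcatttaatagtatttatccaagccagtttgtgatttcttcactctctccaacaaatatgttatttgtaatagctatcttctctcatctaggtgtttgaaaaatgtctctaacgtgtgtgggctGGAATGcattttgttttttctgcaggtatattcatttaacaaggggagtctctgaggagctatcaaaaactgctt
LINC02595: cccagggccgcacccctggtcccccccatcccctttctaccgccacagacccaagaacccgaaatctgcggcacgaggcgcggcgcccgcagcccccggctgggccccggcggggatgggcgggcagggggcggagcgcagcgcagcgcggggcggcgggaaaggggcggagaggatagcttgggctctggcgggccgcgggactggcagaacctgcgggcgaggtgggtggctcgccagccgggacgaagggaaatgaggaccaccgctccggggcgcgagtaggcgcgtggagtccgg
LINC01186: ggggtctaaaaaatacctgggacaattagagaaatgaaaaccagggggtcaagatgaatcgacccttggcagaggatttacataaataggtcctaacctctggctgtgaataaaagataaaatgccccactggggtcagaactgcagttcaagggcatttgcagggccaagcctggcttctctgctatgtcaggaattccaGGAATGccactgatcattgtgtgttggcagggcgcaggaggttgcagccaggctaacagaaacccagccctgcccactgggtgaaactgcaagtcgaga
LINC02454: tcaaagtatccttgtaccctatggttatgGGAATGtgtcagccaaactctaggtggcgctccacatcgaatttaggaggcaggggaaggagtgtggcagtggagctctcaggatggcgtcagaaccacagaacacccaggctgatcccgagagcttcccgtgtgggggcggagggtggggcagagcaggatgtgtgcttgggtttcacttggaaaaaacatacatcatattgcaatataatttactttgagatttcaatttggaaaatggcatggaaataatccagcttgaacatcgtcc

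The AP-1 match in LINC02889 begins 31 bases before the start, that in LINC00963 at base 20 after it, and the E-box in LINC01730 begins 212 bases before it. A TEAD core begins 25 bases before the start in LINC02518, 49 in LINC01186 and 221 in LINC02454, while LINC02541 and LINC02595 hold no match to these letters in this window. GC content differed widely, from 31.3% in LINC02889 to 78% in LINC00963, so the RNAs that fell share no one base composition. Among 49 LINC-named RNAs with a promoter entry, 5 (10.2%) held an AP-1 match, 8 (16.3%) a TEAD core and 2 (4.08%) an E-box, beside 7.71%, 14% and 7.26% of all 35116 promoters. A match of letters is a description and no evidence of binding.

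The nearest coding gene was itself tested for 46 of the 74 placed RNAs, at a median distance of 22834 bases over all 74. For 12 of the 74 the span overlapped that of the nearest coding gene, so not all lie between coding genes. Of all 10589 coding genes tested, 25.8% were lower and 23.6% higher. Of 16 lower RNAs with a tested nearest gene, that gene was lower for 8, higher for 2 and not called for 6; these 16 have 14 different neighbours, 6 of them lower. Of 9 higher RNAs, the nearest gene was higher for 5, lower for 0 and not called for 4, over 8 different neighbours of which 4 were higher. For 21 RNAs that were not called, the neighbour was lower for 7, higher for 1 and not called for 13. When the nearest tested coding gene was taken for every placed RNA, at a median distance of 72668 bases, the lean among lower RNAs was smaller: that gene was lower for 11 of 28, higher for 6 and not called for 11. For the 10 higher RNAs it was higher for 6, lower for 0 and not called for 4. Across the 46 pairs with the nearest gene itself Pearson's r of the log2 fold changes was 0.67, a value across genes that share libraries and in part neighbours. It was 0.40 without LINC02889, LINC01730, LINC02541 and LINC02518, the 4 RNAs farthest from the median. All of these but LINC02541 had an sh-RAD51C mean below 1 FPKM.

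On the log2(FPKM + 1) scale, changes of RNA and neighbour were close in size in some pairs and far apart in others. LINC02889 lies 117298 bases from AHR, which encodes the aryl hydrocarbon receptor and fell from 60.2 ± 2.25 to 25.4 ± 2.1 FPKM (log2 fold change -1.21 beside -1.31). LINC01730 lies 2379 bases from CDC25B, the phosphatase that activates cyclin-dependent kinases, which fell from 118 ± 1.11 to 61.2 ± 0.806 FPKM (-0.93 beside -0.94). By fold of means both RNAs fell further than these neighbours. LINC02889 fell 4.49-fold beside 2.37-fold for AHR, and LINC01730 4.1-fold beside 1.93-fold for CDC25B. With strand unstated, reads running past the end of either gene cannot be assigned with certainty. LINC00673 lies 53145 bases from the zinc transporter gene SLC39A11, which fell from 6.82 ± 0.312 to 3.83 ± 0.247 FPKM (-0.69 beside -0.70). On the other side of LINC00673, 276906 bases away, SOX9, which encodes a transcription factor, went the opposite way, from 6.44 ± 0.449 to 26.5 ± 0.915 FPKM (log2 fold change 1.89). LINC02541 and LINC02518 share the neighbour MARCKS, a protein kinase C substrate, at 207270 and 423898 bases, which fell from 275 ± 10.6 to 186 ± 5.49 FPKM (-0.56 beside -0.98 and -0.91). All SDs are over n = 3 libraries.

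Other neighbours moved less or the other way. ASB13, the neighbour of LINC02677 and LINC02678, was 1.14-fold lower (limma adjusted p = 0.0414). IER5L, the nearest tested gene to LINC01503, fell from 16.2 ± 0.433 to 11.4 ± 0.44 FPKM, whereas NTMT1, the nearest tested gene to LINC00963, was 1.13-fold higher. DUSP10, a phosphatase of stress kinases, rose 1.53-fold and is the neighbour of both LINC02474, which rose, and LINC02257, which fell. The lactate transporter gene SLC16A1 near LINC01357 rose from 52.7 ± 1.15 to 70.7 ± 1.22 FPKM, and the ribosome biogenesis gene SLX9, whose span overlaps LINC01547, rose from 17 ± 0.291 to 24.8 ± 0.0314 FPKM. KRABD4, nearest to LINC01186 and LINC02595, rose by only 0.15 beside their 0.64 and 0.69. LINC00649 and LINC02035 fell while ATP5PO (-0.06) and SLC49A4 (0.01) were not called.

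**Figure D4:**
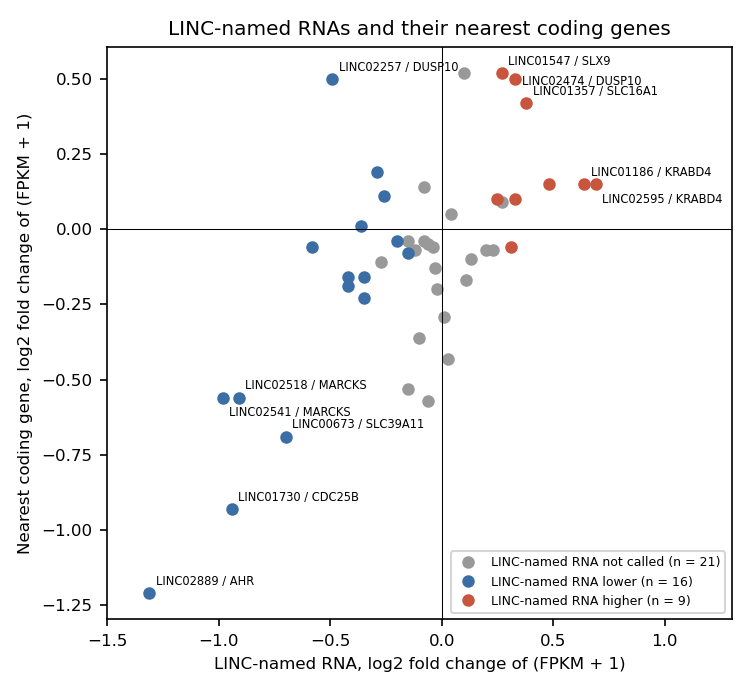
Log2 fold change of (FPKM + 1) of each LINC-named RNA (x axis) and of its nearest coding gene (y axis) for the 46 pairs in which both were tested, coloured by the call of the LINC-named RNA. LINC02889 with AHR (-1.31 and -1.21) and LINC01730 with CDC25B (-0.94 and -0.93) lie at the lower left, and LINC02257 (-0.49) with DUSP10 (0.50) at the upper left. By fold of means, LINC02889 and LINC01730 fell 4.49-fold and 4.1-fold, AHR and CDC25B 2.37-fold and 1.93-fold.

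Other classes of long noncoding RNA differed in direction. All 404 other RNAs that RefSeq types as lncRNA had 140 lower and 66 higher (34.7% and 16.3%), close to the shares of the LINC-named RNAs, and a median of -0.13; with quantile normalization the counts were 95 and 81. Antisense RNAs, named for the gene on the opposite strand, had 70 of 156 lower and 18 higher (45 and 24 with quantile normalization), KLRK1-AS1 falling from 10.3 ± 0.824 to 3.81 ± 0.193 FPKM. Divergent transcripts had 14 of 51 lower and 4 higher (8 and 6 with quantile normalization). Reads of antisense and divergent RNAs cannot be told from those of their partners with strand unstated.

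Host genes of small nucleolar RNAs (SNHG) went the other way, 12 of 23 higher and 0 lower by limma on FPKM, with 1 lower at an unadjusted p under 0.05, 0 lower by voom on inferred reads and 1 lower with quantile normalization. SNHG1 rose from 61.8 ± 2.6 to 81.6 ± 2.3 FPKM and SNHG26 from 8.2 ± 0.963 to 14.9 ± 1.77 FPKM (SD, n = 3 each). MicroRNA host genes had 6 of 18 higher and 5 lower; MIR3142HG and MIR210HG fell 3.85-fold and 3.05-fold and MIR17HG rose 1.49-fold. Of 22 lncRNAs with names of their own, 10 were higher and 7 lower. H19, an imprinted RNA, fell from 239 ± 26.5 to 33.5 ± 8.24 FPKM, CYTOR rose from 4.41 ± 0.417 to 9.85 ± 0.29 FPKM and CASC19 rose 3.51-fold.

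Genes listed for nuclear RNA decay and 3′ end formation were seldom lower. The list also named the microRNA-processing genes DICER1 and DROSHA. Of 30 genes tested from it, 11 were higher, 1 lower and 18 not called (36.7% higher and 3.33% lower, beside 23.2% and 26.2% of all genes). EXOSC4 and EXOSC5, subunits of the RNA exosome, rose from 19.4 ± 0.0789 to 24.9 ± 0.75 FPKM and from 16.8 ± 0.753 to 20.4 ± 0.242 FPKM, and EXOSC2 rose 1.17-fold. The lower gene was ZFC3H1, which links polyadenylated nuclear RNA to the exosome and fell from 6.39 ± 0.143 to 4.38 ± 0.542 FPKM (limma adjusted p = 0.000341; SD, n = 3 each). The part of these genes in the levels of the LINC-named RNAs was not tested.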

How the data were processed

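Per the labels' protocols, TRIzol was used to extract total RNA from 5637 cells, and a VAHTS Universal V6 kit to build the libraries. The deposited values are FPKM per gene symbol, made by the authors. The submitters' processing notes name hg38 as build and list DESeq2 and R 3.2.0, with no step tied to either. Not given in the sources used here: aligner, counter, strand setting and annotation. All 6 columns matched the titles and 0 other per-sample columns were left out. Which RNAs and lists to describe was chosen with earlier results of these data known.

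For the 11152 genes averaging 1 FPKM or more, log2(FPKM + 1) was fitted on group alone in limma 3.58.1 under R 4.3.3 (eBayes, trend on), p-values were adjusted by Benjamini-Hochberg, and genes were called at an adjusted p under 0.05. Log2 fold changes understate changes of low genes, so folds of mean FPKM stand beside them. FPKM values were whole multiples of a step, which gave library totals (from genes of known RefSeq length), the smallest fitting gene length and, from it, whole reads within 0.001 for 100% of genes tested. Within a group, chi-square per degree of freedom between libraries was 3.69 to 14.31, above sampling noise, so none was treated as a repeat. The highest values, 12.58 and 14.31, were those of sh-RAD51C 1 against sh-RAD51C 2 and 3. The value was 5.56 for sh-RAD51C 2 against 3, and 3.69 to 6.39 within NC. RAD51C and all LINC-named RNAs could be named, with full statistics for up to 10 called in each direction and all with a mean of at least 10 FPKM; neighbours were named for called RNAs, and up to 4 genes per other list by smallest p. SLC49A4, ATP5PO and CDC42 as uncalled neighbours, SOX9, UCA1 and the uncalled RNAs were picked after their values were seen. Types, positions and promoters came from RefSeq (GRCh38.p14; 71 symbols matched directly, 3 by synonym, 1 unmatched), and exon overlap from GENCODE release 29, which holds 64 of the 75 symbols. The fit was tested on simulated data. Python 3.11.15, numpy 2.4.6 and pandas 2.3.3 did the rest. Alternatives covered pseudocount, filter, scaling, variance model, replicate block, threshold, voom on inferred reads, exon overlap and the omission of each library.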

Additional observations from a re-analysis of the deposited data

How the results depend on the processing

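Counts of lower and higher LINC-named RNAs (28 and 10) stayed within 1.5 times in most alternatives, at 19 to 29 lower and 7 to 15 higher. The exceptions were no filter on low values (17 lower, 5 higher), an adjusted p under 0.01 (6 higher) and a log2 fold change of at least 0.5 (8 lower, 2 higher), a stricter rule that also left 946 of 5511 genes called. Without each library in turn, 23 to 28 were lower and 8 to 11 higher, and 27 of the 38 calls held each time. Over all alternative fits that tested them, 16 of the lower and 4 of the higher RNAs were called every time. LINC01000, LINC00944 and LINC02454 were among those that lost the call only without the filter (limma adjusted p = 0.0999, 0.0733 and 0.0735). Leaving out genes with exon overlap left 2909 genes called, since fewer were tested; genes not found in GENCODE were kept. The cause of the loss without the filter was not tested. Of 363 values of the 23 RNAs tracked in full, 344 kept direction and call, 16 lost the call, 2 gained it, and 1 reversed: LINC01411, uncalled, was at -0.08 without sh-RAD51C replicate 3 (range -0.08 to 0.11 over the libraries left out). With the replicate number as a block, 29 RNAs were lower and 14 higher. Deviations of same-numbered libraries from their group means had correlations of 0.1903, 0.0257 and 0.0909, beside -0.1671 to 0.11 for differently numbered libraries. With 3 libraries per group, these values cannot decide whether same-numbered libraries share more than a number. Depth limits the precision of the 9 called RNAs with fewer than 30 reads in some library, of which 8 kept the call without each library in turn.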
